A study of Drosophila melanogaster with 8 samples.

Results

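In leg imaginal discs, most called Sp1 peaks shared sequence with a called Dll peak, and a minority lay well away from any. The regions described here are the Sp1 ChIP-seq peaks on chromosome arms 2L, 2R, 3L, 3R and X whose nearest Dll peak, measured from edge to edge, was more than 5000 bp away. They numbered 789 of the 9679 Sp1 peaks on these 5 arms (8.15%), and the whole Sp1 list holds 9850. They are called far Sp1 peaks below. For comparison, 7010 Sp1 peaks shared at least 1 bp with a Dll peak, and 1880 had a Dll peak within 5000 bp but shared no sequence with it. The members were chosen by the measured positions of the peaks in both lists, so their number and their distance from Dll are descriptions and were not tested.

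In ChIP-seq, an antibody pulls down a protein with its bound DNA, and sequencing shows where that DNA exceeds unprecipitated input chromatin. Dll was precipitated with a goat anti-Dll antibody from *yw* larvae, and Sp1 with a rabbit anti-GFP antibody from Sp1-GFP (BAC) larvae, which carry GFP-tagged Sp1 on an inserted genomic clone. All larvae were at the wandering L3 stage, each pool held 100 of them with all 6 leg discs taken from each, and per factor there were 3 ChIP samples beside 1 input sample. The authors merged ChIP libraries before they called peaks, so the lists carry no spread between replicates and no read counts, and the depth behind a peak is unknown. Genotype, antibody and factor differ together between the lists, so an effect of one cannot be told apart from an effect of another. Where no Dll peak is listed, Dll signal may still be present below the threshold of the calls. The labels do not state whether the Sp1-GFP (BAC) larvae also kept their own *Sp1* gene.

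Sp1 is a zinc finger transcription factor of the Sp family, whose members bind short GC-rich or GT-rich boxes. Together with its paralog *buttonhead* it acts early in the ventral appendage primordia, where it is needed for leg identity and growth. Dll is a homeodomain protein and the selector of distal leg fate, and its domain in the disc overlaps that of Sp1. To show the kind of sequence meant, both putative Sp1 sites that the authors mutated in *vnE*, a leg enhancer of the EGFR ligand gene *vn* on 3L, are given with the mutated bases in capitals:
vnE Sp1 site1: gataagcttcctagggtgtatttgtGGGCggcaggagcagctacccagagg
vnE Sp1 site2: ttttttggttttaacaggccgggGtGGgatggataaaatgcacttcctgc
The first holds a GC-rich run and the second a GT-rich one. They are predicted sites, not far Sp1 peaks, and nothing here measured whether Sp1 binds or acts through them. Sequence under the far Sp1 peaks was not analysed here, so whether they hold such boxes was not tested.

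The gap from a far Sp1 peak to the nearest Dll peak had a median of 10804 bp, with quartiles of 7579 and 18022 bp. Of the 789, 350 had their nearest Dll peak 5 to 10 kb away, 260 had it 10 to 20 kb away, 148 had it 20 to 50 kb away and 31 lay beyond 50 kb. Most far peaks were thus within 20 kb of a Dll peak. Among the Sp1 peaks that shared no sequence with Dll, 978 had a gap of at most 500 bp, 251 one of 500 to 1000 bp, 198 one of 1000 to 2000 bp and 453 one of 2000 to 5000 bp. Per kb of gap these are 1956, 502, 198 and 151 peaks, and the 5 to 10 kb bin had 70, so the counts fell throughout and no break marked 5000 bp. On the log scale of the plot by gap, where bins widen with distance, there is a second rise at several kb, and the limit runs through it. The 3 far peaks nearest to the limit lay on 3L from 5763756 to 5763844, on 2R from 12474039 to 12474136 and, on 2L, between 10298425 and 10298714, with gaps of 5017, 5019 and 5037 bp. Just outside the limit were peaks on 2R (14039203 to 14039267), 3R (8257003 to 8257081) and 3L (18898007 to 18898060), with gaps of 4983, 4972 and 4971 bp. The −log10 q values of the first 3 were 9.15, 6.15 and 5.56 and those of the others 6.25, 7.26 and 6.14. Scores on the 2 sides of the limit overlapped.

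**Figure D1:**
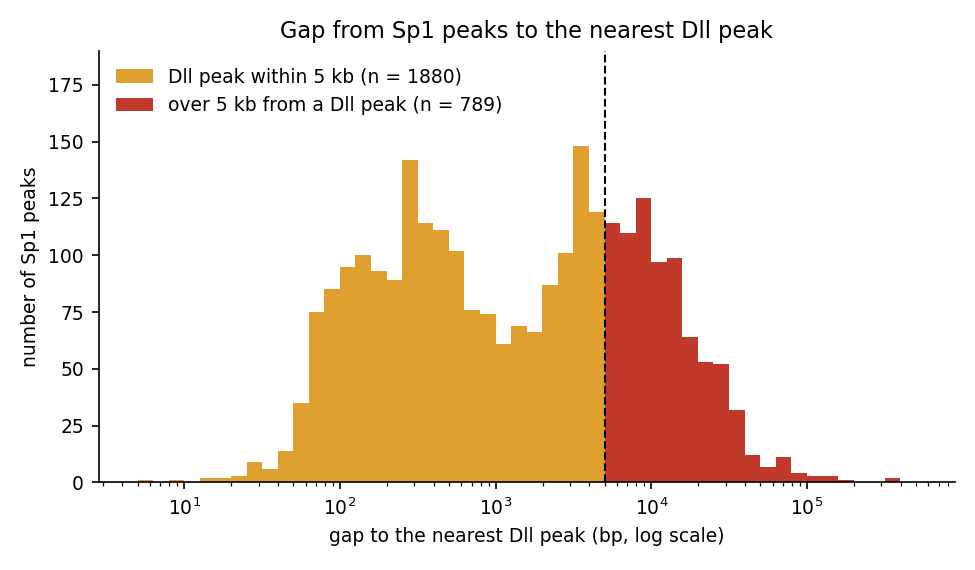
Number of Sp1 peaks (vertical axis) by the gap in bp to the nearest Dll peak (horizontal axis, log scale) for the 1880 Sp1 peaks with a Dll peak within 5 kb and the 789 far Sp1 peaks. The dashed line marks 5000 bp, which runs through the second rise of the counts at several kb. That rise is seen with bins that widen along the log axis, while counts per kb fall throughout.

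The far Sp1 peaks extended over long stretches with no Dll call. Of the 118.8 Mb spanned by the lists on the 5 arms, 74.7 Mb (62.9%) lay more than 5000 bp from any Dll peak. The far peaks in it had a density of 10.6 per Mb, or 1 per 94.7 kb. In the rest of the span, within 5000 bp of a Dll peak, the density of Sp1 peaks was 202 per Mb. These densities follow in part from the rule, which placed the far peaks in the first kind of sequence. The farthest from Dll were a pair on 3L from 24020888 to 24021043 and from 24021301 to 24021609, 337784 and 338197 bp from the nearest Dll peak. Their −log10 q values were 8.32 and 17.26. The next farthest was on X from 22415265 to 22415348, with a gap of 158398 bp and a score of 4.70. Its nearest other Sp1 peak was 379110 bp away. All of these lie toward the end of their arm that faces the centromere.

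Each peak has the authors' −log10 q value, which is the statistical significance of the ChIP signal over input and not its height. It is used here to rank the peaks of one factor among themselves. Peaks called tall or weak below have a high or low value. The rule did not use it. Far Sp1 peaks had a median −log10 q of 5.89 (95% interval of the median 5.71 to 6.04), with quartiles of 4.80 and 8.33. All Sp1 peaks of the 5 arms had a median of 6.49, those with a Dll peak within 5 kb 5.52, and those that shared sequence with Dll 7.05. As percentile ranks among all Sp1 peaks, the medians were 42.3 for far peaks, 35.4 for peaks with Dll within 5 kb and 56.0 for peaks that shared sequence with Dll. Far peaks thus ranked between the other classes. This order of the medians was found on all 5 arms, where the median rank of far peaks ran from 38.9 on X to 45.2 on 3R. Peaks of one merged profile are not replicates, so no test was made between the classes. The intervals given here hold counting error alone, and take each peak as independent of its neighbours.

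The scores of far Sp1 peaks were spread unevenly. In the lowest 10% of Sp1 peaks by score, 104 of 968 were far (10.7%, 95% Wilson interval 8.95% to 12.9%). Between percentiles 60 and 70 the share was 6.05% (interval 4.71% to 7.74%), and between 95 and 98 it was 5.17% (interval 3.16% to 8.36%). In the top 0.5% it was 24.5% (12 of 49, interval 14.6% to 38.1%), and in the 0.5% just below 10.6% (5 of 47, interval 4.63% to 22.6%). Far peaks were therefore a larger part of the highest bin than of the list as a whole, while in every bin from percentile 50 to 99 their share was below the 8.15% of all peaks. Seen from the far peaks, 68 of the 789 were in the top 10% by score (8.62%), beside 9.82% of all Sp1 peaks of the arms, and 12 were in the top 0.5% (1.52%), beside 0.506% of all. For Sp1 peaks that shared sequence with Dll the same shares were 11.6% and 0.414%. The narrow top bin was chosen with the highest peaks already known, and it holds few peaks. In the plot of shares by score, peaks with a Dll peak within 5 kb made up 30.6% of the lowest bin and 5.17% between percentiles 95 and 98. They made up 16.3% of the highest bin (interval 8.51% to 29.0%). Over the whole list they were 1880 of 9679, a larger share than in that bin.

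**Figure D2:**
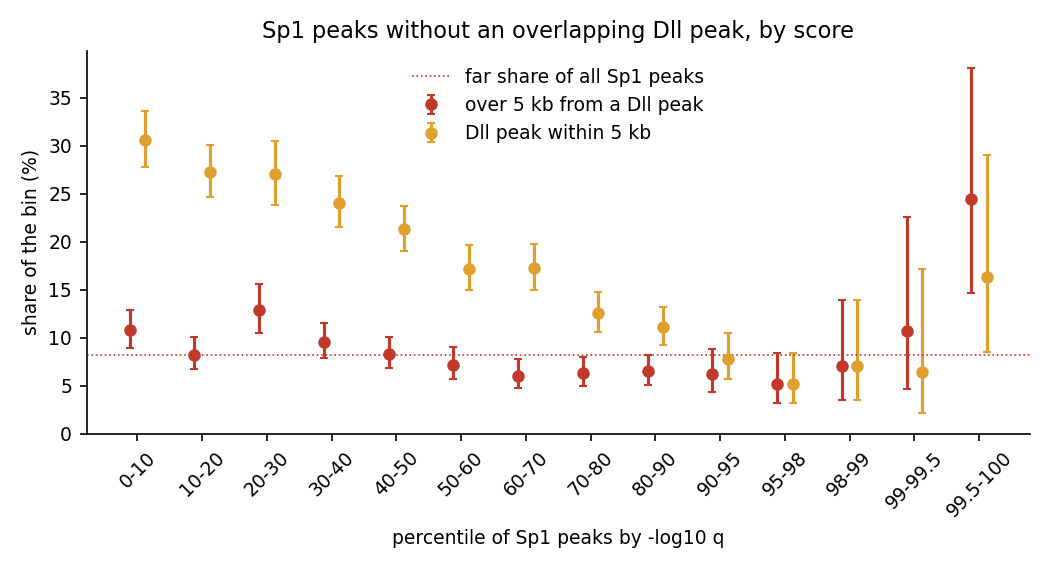
Share in percent (vertical axis) of Sp1 peaks in each percentile bin by −log10 q (horizontal axis) that were more than 5 kb from a Dll peak or had one within 5 kb without sharing sequence with it. Points are shares, bars are 95% Wilson intervals and the dotted line is the far share of all Sp1 peaks, 8.15%. The far share is above that line in low bins, below it from percentile 50 to 99, and at 24.5% in the highest bin.

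The 10 far Sp1 peaks with the highest scores lay on all 5 arms, with −log10 q values from 41.86 to 71.57. The highest, on 3R from 976192 to 976981, scored 71.57. It was 789 bp long, its nearest Dll peak was a weak call of 4.26 at 28637 bp, and its nearest other Sp1 peak was 21897 bp away. This was a single tall call with no other peak of either factor within 20 kb. The highest on 2L, from 739591 to 740531, scored 69.80. At 940 bp it was the longest of all far peaks, and it too stood alone, 23700 bp from Dll (a peak of 20.30) and 23793 bp from any other Sp1 peak. Another on 2L, from 16049669 to 16050169, scored 69.25 and was 137624 bp from the nearest Dll peak. It was flanked within 1 kb by 2 weak Sp1 peaks with −log10 q values of 5.83 and 7.49.

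On X the highest far peak lay from 13315184 to 13315429 and scored 60.35, and on 3L from 4092830 to 4093297 with 57.28. Their nearest Dll peaks were 7971 and 9250 bp away and had −log10 q values of 4.51 and 9.25, on either side of the Dll median of 7.09 and well under the 60.31 of the highest Dll peak. The 3R peak from 17234199 to 17234596, with 49.37, was just past the limit, 5064 bp from a Dll peak of 11.10. A weaker Sp1 peak at its Dll side, with 5.69, was within 5000 bp of Dll and so was not itself a far peak. The highest on 2R lay from 3901820 to 3902102 with 45.70, at 24437 bp from Dll. The last of the 10 lay on 3L from 14667096 to 14667466 and on 3R from 6503223 to 6503798, both with 42.91, followed by a 3L peak of 41.86 between 18080928 and 18081427. Of these 3, the 3R peak had the strongest nearest Dll peak, one of 24.58 at 8176 bp.

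Of the 10, 4 had no other Sp1 peak within 5 kb and 6 had 1 or 2 others within 1 kb. Every such neighbour had a −log10 q under 10, from 4.00 beside the 3L peak of 57.28 to 9.54 beside the 2R peak of 45.70. The tall far peaks were thus either solitary or beside 1 or 2 calls of much lower score, some of them above the median of all Sp1 peaks, 6.49. Tall peaks of the other classes were not counted in this way, so it is not shown to be particular to far peaks. A 2L peak of 54.86 that shared sequence with Dll also had a neighbour of 5.25, 202 bp away. The highest Sp1 peak of the arms, at 84.94, had a Dll peak within 5 kb. The 10 far peaks were from 245 to 940 bp long.

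**Figure D3:**
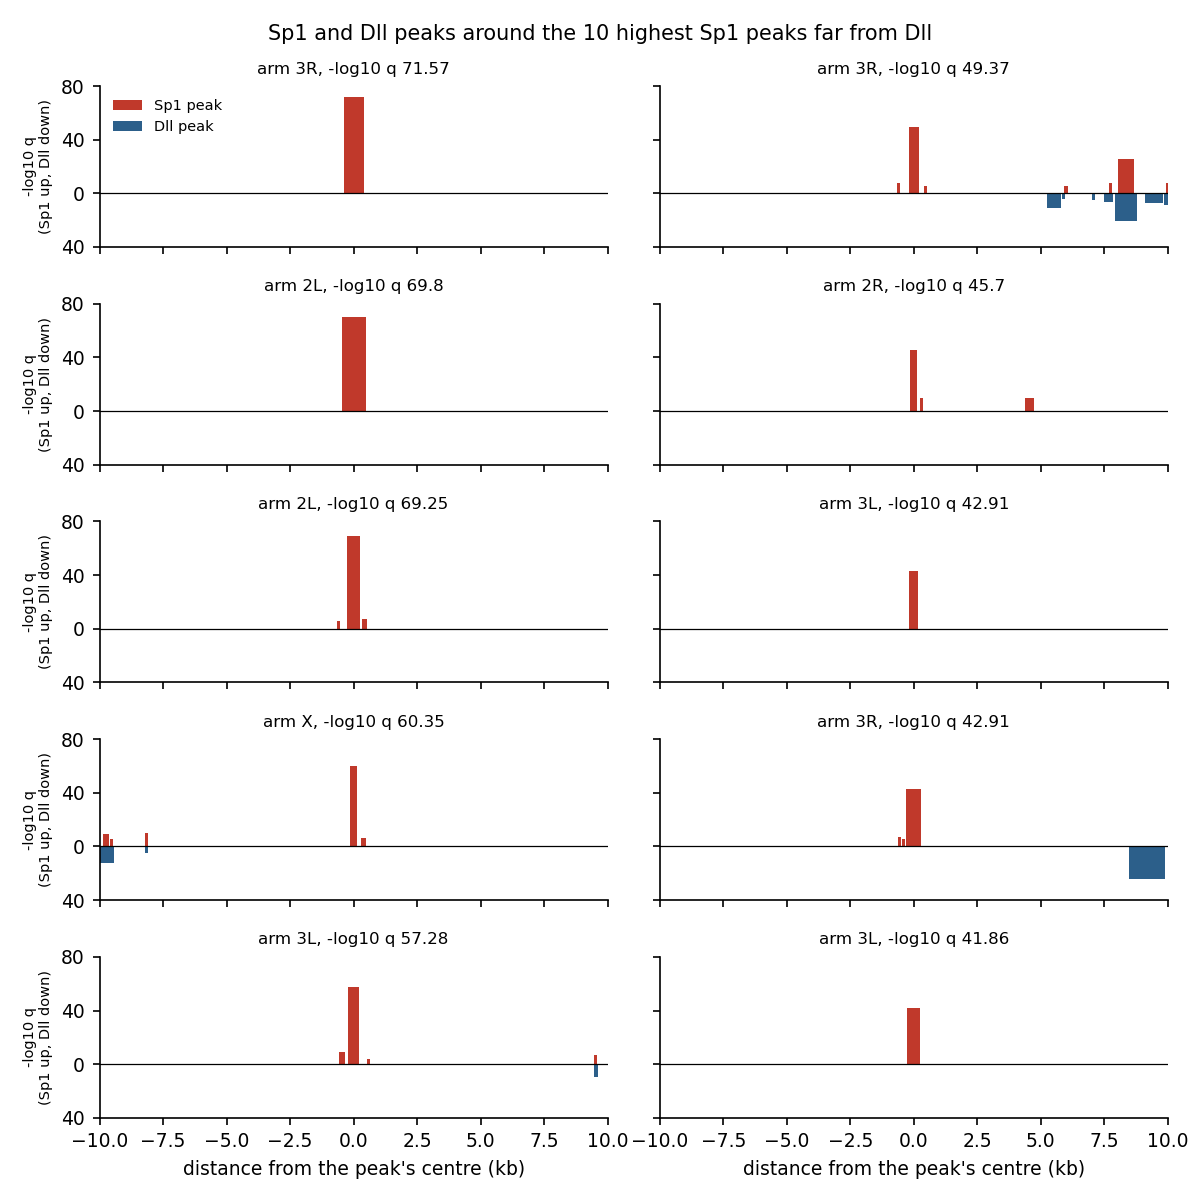
Sp1 peaks (red, upward) and Dll peaks (blue, downward) around the 10 far Sp1 peaks with the highest scores, with bar height giving −log10 q on the vertical axis and the horizontal axis the distance in kb from the centre of the far peak, out to 10 kb. Bars have the width of the peak but at least 120 bp. In 4 panels the peak at the centre has no other Sp1 peak within 5 kb.

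Far Sp1 peaks were short. Their median length was 105 bp (95% interval 98 to 113 bp), with quartiles of 73 and 175 bp, beside 130 bp for all Sp1 peaks, 95 bp for those with Dll within 5 kb and 147 bp for those that shared sequence with Dll. Higher peaks were also longer, with a Spearman correlation of length and score of 0.44 over the 789 far peaks and 0.53 over the 7010 that shared sequence with Dll. Lengths were therefore set side by side within 3 classes of score, cut so that each held about as many Sp1 peaks. In the highest class, far peaks had a median length of 162 bp (interval 143 to 187 bp), peaks with Dll within 5 kb 156 bp, and peaks that shared sequence with Dll 248 bp (interval 239 to 259 bp). The medians in the middle class were 99, 95 and 130 bp, and in the lowest class 86, 84 and 100 bp. At like scores far peaks had medians close to those of peaks beside Dll, and below those of peaks that shared sequence with it. A longer Sp1 peak has more sequence with which to meet a Dll peak, so length is not wholly separate from the classes. Of the far peaks, 71 (9.0%) were longer than 300 bp, beside 4.84% of those with Dll within 5 kb and 19.6% of those that shared sequence with it. The 3 longest were both tall calls on 3R and 2L described above and a peak on X from 10201918 to 10202709, which was 791 bp long with a −log10 q of 25.18. That peak had another Sp1 peak of 24.19 at 433 bp, so it was one of a pair of nearly equal score.

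**Figure D4:**
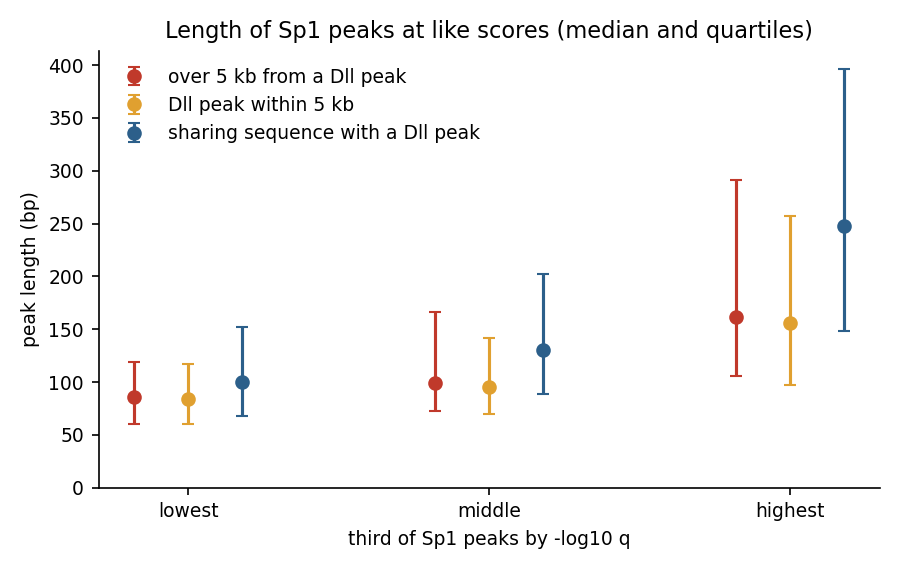
Length of Sp1 peaks in bp (vertical axis) within the 3 score classes of Sp1 peaks by −log10 q (horizontal axis), for far peaks, peaks with a Dll peak within 5 kb and peaks that share sequence with a Dll peak. Points are medians and bars run from the lower to the upper quartile. In the highest class the medians are 162, 156 and 248 bp.

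Far Sp1 peaks were more often solitary than Sp1 peaks at or beside Dll. Of the 789, 362 (45.9%, 95% Wilson interval 42.4% to 49.4%) had no other Sp1 peak within 5000 bp, beside 13.4% of all Sp1 peaks of the arms, 10.4% of those with Dll within 5 kb and 10.6% of those that shared sequence with it. On single arms the share for far peaks ran from 42.3% on 2R to 47.9% on 3R. The share was 52.1% in the lowest of the 3 score classes and 38.4% in the highest, so solitary far peaks were not confined to weak calls. Spacing is not independent of the rule, since most Sp1 peaks lie at Dll peaks and a far peak is by construction away from those. The plot of spacing shows this as a bend at 5 kb. No other Sp1 peak lay within 20 kb of 100 far peaks. The solitary far peaks had a median rank of 36.1 (interval 33.3 to 40.05) and those with a neighbour 46.4 (interval 42.4 to 50.0), and 29 of the 68 far peaks in the top 10% were solitary.

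**Figure D5:**
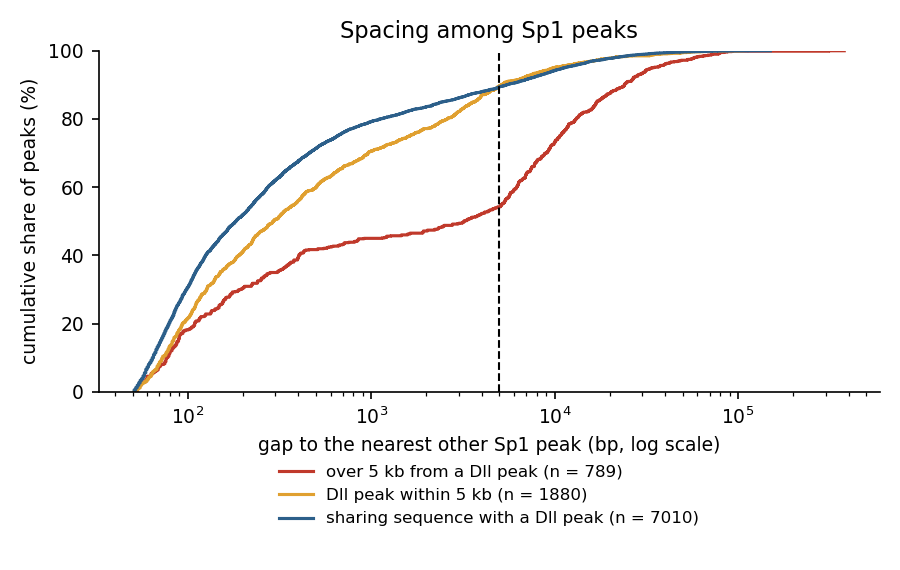
Cumulative share of Sp1 peaks in percent (vertical axis) by the gap in bp to the nearest other Sp1 peak (horizontal axis, log scale), for far peaks, peaks with a Dll peak within 5 kb and peaks that share sequence with a Dll peak. The dashed line marks 5000 bp, beyond which 45.9% of far peaks and 10.6% of peaks that share sequence with Dll have their nearest neighbour.

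The other 427 far peaks had company, and for 402 of them the nearest Sp1 peak was itself far from Dll. The rule largely sets this. For 328 of the far peaks another Sp1 peak lay within 500 bp, while their median gap to Dll was 10804 bp. A neighbour so close is mostly past the limit as well. Joining far peaks within 500 bp of each other left 604 groups, of which 466 held 1 peak, 102 held 2, 26 held 3, 9 held 4 and 1 held 5. A count of far peaks is thus not a count of separate sites. In the 138 groups of more than 1 peak, which held 323 peaks, the median gap between neighbours was 123 bp. In 88 of these groups the highest peak was also the longest. Most were pairs, and groups of the other classes were not counted, so this is not shown to be particular to far peaks. The highest peak of a group exceeded the next by a median of 2.62 in −log10 q, and by 61.76 at most. Joining all Sp1 peaks of the arms in the same way before the rule was applied gave 598 far regions of 5493. Of these, 77.1% held a single call, beside 81.1% of joined regions with Dll within 5 kb and 50.6% of those that shared sequence with it. Their median length was 128 bp, beside 103 bp and 362 bp. In both measures the joined far regions were close to those beside Dll. The longest joined far region was 1670 bp, while joined regions at Dll reached 5887 bp with up to 18 calls.

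Both of the largest groups held 5 far peaks. On 3L, 5 peaks from 7242198 to 7243779 lay within 1581 bp, with −log10 q values of 5.51, 7.97, 7.83, 4.15 and 5.52 from left to right. None of them stood out from the others. Each had 6 other Sp1 peaks within 5 kb, so Sp1 peaks that were not far from Dll lay beside this group. On 3R, 5 peaks joined within 5000 bp of each other from 12256984 to 12259066 had values of 4.80, 4.10, 39.77, 5.83 and 4.05. Here 1 tall peak, from 12257490 to 12257744, lay among 4 calls below the median of the Sp1 list. The groups are 5225 to 6678 bp and 12769 to 14737 bp from the nearest Dll peak.

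Far Sp1 peaks were found along all 5 arms. They made up 6.63% of the Sp1 peaks of 3L (95% Wilson interval 5.64% to 7.77%), 7.92% of 2L, 8.24% of 2R, 8.37% of 3R and 10.1% of X (interval 8.70% to 11.8%). X had the highest share and 3L the lowest. Their intervals do not overlap, but they take each peak as independent, and 328 of the far peaks had another Sp1 peak within 500 bp. The difference between arms was not tested. Per Mb of sequence more than 5000 bp from Dll, however, X had 10.1 far peaks, within the range from 9.32 on 2L to 13.4 on 2R. X also had 66.7% of its span away from Dll, the largest part of the 5 arms, beside 64.9% for 2L and 61.1% for 3L. Within 5000 bp of Dll, X had the lowest density of Sp1 peaks, 178 per Mb, beside 201 to 217 on the other arms. Of 121 windows of 1 Mb, 119 held a far peak, with a median of 6 and at most 18. Among the 115 windows with 20 or more Sp1 peaks, 4 had a far share of 20% or more. The highest shares were 32.1% from 20 to 21 Mb of X (9 of 28) and 28.3% from 1 to 2 Mb of 2R (17 of 60), both toward the centromere.

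Distance from Dll went with small differences among the far peaks. The median rank by score was 36.7 (95% interval 34.5 to 42.1) at 5 to 10 kb from Dll, 44.6 (interval 40.05 to 50.4) at 10 to 20 kb and 48.4 (interval 40.05 to 56.0) at 20 to 50 kb. The share in the top 10% was 7.14%, 8.08% and 12.8% in the same bins. Beyond 50 kb the median rank was 40.05, over 31 peaks. The solitary share lay between 41.9% and 47.7% in the 4 bins. The 510 Dll peaks that were nearest to a far Sp1 peak had a median −log10 q of 6.43 and a median rank of 42.1 in the Dll list, beside 7.09 and 50.6 for all 11744 Dll peaks of the arms. The 1367 Dll peaks nearest to an Sp1 peak with Dll within 5 kb were alike in this, with 6.36 and 41.6. Of the 510, 251 shared sequence with an Sp1 peak (49.2%), beside 57.8% of the 1367 and 44.5% of all Dll peaks. A score below the median of the Dll list was thus not particular to the Dll peaks nearest to far Sp1 peaks.

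No gene annotation of the dm3 genome was used here, so the genes at far Sp1 peaks were not assigned. As landmarks of a locus, and not as targets, the regions that the study assigned to a nearest gene were used. These regions lie in Dll peaks that the study intersected with Sp1 peaks, accessible chromatin and predicted binding sites. Within 20 kb of such a region were 76 far peaks (9.63%), at regions of 56 of 338 genes. The share was 22.8% for peaks with Dll within 5 kb, 34.7% for those that shared sequence with Dll and 30.3% for all Sp1 peaks. The rule lowers it for far peaks, which cannot be within 5000 bp of a Dll peak. Sp1 peaks that shared sequence with Dll include those from which the regions were made, which raises their share and that of all Sp1 peaks. Only *ush* and *hh* had 4 or more far peaks near their regions. *ush* on 2L encodes U-shaped, a zinc finger cofactor of GATA factors, and had 5. They lay from 507129 to 507493, from 510624 to 510747, from 512967 to 513020, from 542254 to 542322 and from 542378 to 542431, with −log10 q values of 9.01, 13.44, 5.99, 4.71 and 6.27. The first 3 were spread over several kb, and the last 2 were 56 bp apart. *hh* on 3R encodes Hedgehog, the signal of posterior cells that induces *wg* and *dpp* across the compartment boundary of the leg disc, and had 4. These lay from 18952616 to 18952745, from 18982795 to 18982967, from 18983020 to 18983263 and from 18983851 to 18983904, with 4.47, 8.75, 7.75 and 5.92. The last 3 were 53 and 588 bp apart, so the counts at both genes are not counts of separate sites. How many Sp1 peaks of any class lay near either gene was not counted. None of the 9 peaks was in the top 10% of the list, and 5 were below its median score. Of the 10 highest far peaks, 2 had a landmark within 20 kb. These were the X peak of 60.35, near a region of *GstT4*, which encodes a glutathione S-transferase, and the 3R peak of 49.37, near a region of *lbl*, which encodes the homeodomain protein Ladybird late.

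Leg genes were looked up through the same landmark regions. Of the 22 proximo-distal leg genes listed, 9 had a landmark region, and 2 of these had a far peak within 20 kb, *bab2* and *disco-r* with 1 each. *bab2* encodes a BTB transcription factor of the tarsus and *disco-r* a zinc finger protein of the ventral appendages. Of the 6 growth genes, 3 had a region and *ex*, a member of the Hippo pathway, had 1 far peak. None was found for the Wg and Dpp pathway (0 of 7 genes with a region), the EGFR pathway (0 of 2), the Notch and joint genes (0 of 5) or the Hox genes (0 of 1). Over all genes with a region the share was 16.6%. Genes with no landmark region could not be looked up, and few genes of each list had one, so these counts say little about the lists as wholes.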

How the data were processed

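Dll and Sp1-GFP ChIP libraries from larval leg discs were aligned by the authors with the Burrows-Wheeler Aligner, and peaks were called on merged libraries with MACS2 (2.0.9 per the labels) in dm3. The methods speak of triplicate pools and of merged duplicates, so which libraries entered each list is not clear. The authors deposited 1 list per factor with the start, the end and the −log10 q value of each peak, which is 4 or more in both. Starts and ends are printed as deposited, and the lists do not state whether starts count from 0 or 1.

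Peaks on chromosome 4, Het and U sequences were left out by the rule. Gaps were measured edge to edge, ranks were percentiles among the 9679 Sp1 peaks of the 5 arms with ties averaged, shares have 95% Wilson intervals and medians have intervals from binomial order statistics. No test was made, since merged peaks give no replicates. Python 3.11.15, numpy 2.4.6, pandas 2.3.3, scipy 1.17.1 and matplotlib 3.10.9 were used, and the functions for gaps and groups were tested on simulated data. Far peaks named are the 10 highest, the highest of each arm, the 3 longest, the 3 farthest from Dll, the 3 nearest to each side of the limit and the largest groups. Genes named are landmarks within 20 kb of a named peak or with 4 or more far peaks. Members and lists were chosen with earlier results of these data known. All 338 landmark gene names were found in RefSeq Release 6, from which no coordinates were used. The 14 alternatives were other limits, thresholds, joining and leaving out each arm. Sequence features and promoter positions, which need a dm3 genome, were not analysed here. The depth of the libraries is unknown.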

Additional observations from a re-analysis of the deposited data

Results flagged for a closer look

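Some Sp1 peaks on the Het and U sequences, which the comparisons did not use, also lay away from Dll, though most did not. Of 75 Sp1 peaks there, 27 had no Dll peak within 5000 bp (36.0%), with −log10 q values up to 39.40, beside 52 Dll peaks on these sequences. On chromosome 4, also not used, the same held for 3 of 96 Sp1 peaks, with values up to 7.05.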

How the results depend on the processing

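No paired analysis was possible because each factor has 1 list made from merged ChIP libraries. For the same reason no replicate could be left out. Leaving out each arm in turn gave 597 to 650 far peaks, and the other values moved within their intervals in the full set (median rank 40.2 to 42.8, median length 101 to 107 bp, solitary share 45.2% to 46.9%, share in the top 10% 7.70% to 9.39%). With a limit of 2000 bp the number of far peaks was 1242 (12.8% of Sp1 peaks). It was 439 (4.54%) with 10000 bp and 179 (1.85%) with 20000 bp. When only Dll peaks with a −log10 q of at least 5 or 10 counted, it was 1204 (12.4%) and 3269 (33.8%). For Sp1 peaks of at least 10 it was 147 of a shorter list of 2132 (6.89%), beside 8.15% in the main setting. The median rank was 45.8 and 46.4 with limits of 10000 and 20000 bp, 50.9 among Sp1 peaks of at least 10 and 36.1 after joining Sp1 peaks within 500 bp. The median length was 115 and 121 bp with limits of 10000 and 20000 bp, 121 and 187 bp for Sp1 peaks of at least 5 and 10, and 128 bp after joining. The solitary share was 34.5% with 2000 bp, 53.1% and 77.6% for Sp1 peaks of at least 5 and 10, 39.7% and 27.3% with Dll peaks of at least 5 and 10, and 79.8% after joining. Fewer peaks enter under the stricter Sp1 thresholds, and the solitary share of all Sp1 peaks was then 18.2% and 45.03%, and 40.4% after joining. The share in the top 10% was 12.3% with 20000 bp, 10.8% and 17.7% for Sp1 peaks of at least 5 and 10, and 6.73% with Dll peaks of at least 10. All but the last were above the 9.82% of all Sp1 peaks in the main setting, where far peaks were below it with 8.62%. Under the Sp1 thresholds ranks were taken anew among the peaks kept.

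The far share of the top 0.5% was recomputed after its value was seen. It was 22.2% to 27.5% without each arm and 21.4% (6 of 28) after joining, where 10.9% of all regions were far. It was 8.16% (4 of 49) with a limit of 20000 bp, where 1.85% of all peaks were far, and 44.9% with Dll peaks of at least 10, where 33.8% were. Since depth is unknown, a missing Dll peak may lie below what the libraries could show.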

Other observations

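Besides *ush* and *hh*, 4 genes had 3 far Sp1 peaks within 20 kb of their landmark regions and 7 had 2, and they are named here after their counts were seen. Those with 3 were *CG13551* (−log10 q from 5.94 to 11.95), *CG32447* (5.12 to 14.76), *Treh*, which encodes the enzyme trehalase (5.62 to 11.97), and *Smox*, which encodes a Smad of the Activin branch of TGF-β signalling (4.16 to 11.09). Those with 2 were *GstT4* and *lbl*, described above, *grn*, which encodes the GATA factor Grain (10.38 and 30.78), *Sema-1b*, which encodes a semaphorin (9.68 and 10.38), *Tgi*, which encodes a cofactor of the Hippo pathway (5.35 and 6.45), *CtBP*, which encodes a corepressor (4.41 and 5.71), and *lolal* (4.04 and 4.17). The 30.78 peak near *grn* was the highest of these outside *GstT4* and *lbl*. Most of these counts are not counts of separate sites. Neighbouring peaks were 63 to 333 bp apart near *CG13551*, *Treh* and *Smox*, and 2 of the 3 near *CG32447* were 141 bp apart. The pairs near *GstT4*, *lbl*, *grn*, *Sema-1b* and *Tgi* were 65 to 329 bp apart, those near *CtBP* and *lolal* 2024 and 3679 bp. How many Sp1 peaks of any class lay near each gene was not counted.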
